A study of Mus musculus with 4 samples.

Results

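Genes of transforming growth factor beta (TGF-beta) signalling were followed across the cell classes of mouse aorta: the ligands Tgfb1, Tgfb2 and Tgfb3, the receptors Tgfbr1 and Tgfbr2, the co-receptors Tgfbr3 and Eng, and the latency proteins Ltbp1, Ltbp3 and Ltbp4. They were chosen by symbol, and each of the 10 symbols matched 1 of the 32285 genes in the count matrices. RNA of single cells was counted by 10x Genomics 3' chemistry in 4 libraries, each the sole library of its group. Values are given in one order throughout: WT (normal diet), LysM-DKO (normal diet), WT/ApoE-/- (western diet) and LysM-DKO/ApoE-/- (western diet). LysM is the usual name of lysozyme M, a gene of myeloid cells whose promoter is used to drive Cre recombinase. The sources used here do not give what LysM-DKO deletes, the age of the mice or how many aortas went into a library, while the series title points to epsins, adaptor proteins of endocytosis. Western diet always came with loss of ApoE, with another sex as read from Xist and Y-linked genes, and with another version of the counting software. A difference between diets cannot be told apart from these, and the word diet stands for all of them below.

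TGF-beta ligands are secreted as latent complexes, in which the mature ligand stays bound to its own propeptide. LTBP proteins tie this complex to the extracellular matrix, and integrins, proteases or thrombospondin release the ligand. Released ligand binds TGFBR2, which recruits and phosphorylates TGFBR1, and SMAD2 and SMAD3 carry the signal to the nucleus. TGFBR3 (betaglycan) presents ligand, above all TGF-beta2, and endoglin (ENG) serves BMP9 and TGF-beta signalling in endothelium. In the aorta the pathway is known for its part in matrix production, in the state of smooth muscle, and in inherited aneurysm syndromes caused by mutations of ligand and receptor genes.

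RefSeq promoters on GRCm38.p6 were at hand for 8 of the 10 genes, and none for Tgfb3 and Tgfbr3. Those of Tgfb1, Ltbp1 and Ltbp4 are shown for these reasons. Tgfb1 was higher in the immune classes than in fibroblasts and smooth muscle. Ltbp1 and Ltbp4, like Ltbp3 latency genes found in the vessel wall, differed in opposite directions between diets in smooth muscle. Each line holds the 250 bases before a transcript start, 5' to 3' on the strand of the gene, in a window free of annotated exons. The windows are chr7:25686752-25687001 on the plus strand for Tgfb1, chr17:75005279-75005528 on the plus strand for Ltbp1 and chr7:27333664-27333913 on the minus strand for Ltbp4. Capitals mark GGGCGG or its reverse complement, the letters of a GC box.
Tgfb1: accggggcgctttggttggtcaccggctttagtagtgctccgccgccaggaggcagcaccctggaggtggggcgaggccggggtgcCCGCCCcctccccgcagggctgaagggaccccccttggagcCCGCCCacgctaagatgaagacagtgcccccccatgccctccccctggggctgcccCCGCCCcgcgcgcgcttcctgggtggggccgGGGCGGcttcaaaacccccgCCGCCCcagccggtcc
Ltbp1: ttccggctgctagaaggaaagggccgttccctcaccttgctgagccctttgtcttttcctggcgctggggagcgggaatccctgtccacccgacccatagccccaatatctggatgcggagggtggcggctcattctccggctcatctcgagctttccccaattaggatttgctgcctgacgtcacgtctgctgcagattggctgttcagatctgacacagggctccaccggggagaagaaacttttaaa
Ltbp4: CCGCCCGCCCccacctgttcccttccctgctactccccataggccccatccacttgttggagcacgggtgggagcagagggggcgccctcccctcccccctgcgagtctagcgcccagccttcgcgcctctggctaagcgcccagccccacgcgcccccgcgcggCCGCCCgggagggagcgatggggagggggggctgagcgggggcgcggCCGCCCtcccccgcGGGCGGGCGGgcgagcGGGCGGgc
The windows of Tgfb1 and Ltbp4 held 5 and 7 matches at 75.2 and 79.2% G+C, some of the latter sharing letters. The Ltbp1 window held none at 56.8% G+C. The Ltbp4 window shown belongs to a start inside the gene. Other Ltbp4 windows overlap annotated exons and held fewer matches, 3 at 64.4% G+C at the 5' end of the gene and 5 at 79.2%. Another Ltbp1 window, inside that gene, held none. Of 32851 promoter windows of the same length, 32.7% held GGGCGG on either strand. The CArG box bound by serum response factor, the SMAD palindrome GTCTAGAC and the AP-1 letters TGACTCA were found in 1.47, 0.167 and 4.46% of all windows and in none of the 3 shown. A match, or the lack of one, describes these letters only.

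Classes were set by summed counts of marker genes in barcodes of at least 1000 unique molecular identifiers (UMIs) and at most 10% mitochondrial UMIs, of which the libraries kept 7758, 8230, 13744 and 8133. The first rule met gave the class: C1qa, C1qb and C1qc for macrophages, Cd79a and Ms4a1 for B cells, Cd3d, Cd3e and Trac for T cells, Pecam1 and Cdh5 for endothelium, Pdgfra and Serpinf1 for fibroblasts, Myh11 and Cnn1 for smooth muscle. Macrophage barcodes numbered 92, 208, 939 and 135, endothelial 732, 880, 394 and 417, fibroblast 628, 751, 634 and 654 and smooth muscle 3690, 3487, 8836 and 6636. B and T barcodes numbered 773, 1121, 503 and 14 and 738, 645, 315 and 33, too few in LysM-DKO/ApoE-/- to be used. Kept barcodes had a median of 2103 UMIs in WT/ApoE-/- and of 3404 to 6761 in the other libraries. Every class held all of its own check markers, which the rules do not use, in every library where it was used. Levels are UMIs of a gene per 1000000 UMIs of the class (CPM). In macrophages Epn1 was at 81.7, 54.5, 52.4 and 42.7 CPM and Epn2 at 35.6, 33.6, 33.2 and 15.7 CPM. A 3' count can see transcript outside a deleted part, so this is no check of a deletion.

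The endothelial label holds only in part. Of its barcodes 69.4 to 83.2% also met the smooth muscle rule, and they held Acta2, an actin of smooth muscle, at 13779, 10157, 8384 and 11211 CPM, beside 17437, 15158, 17423 and 19252 CPM in smooth muscle. Barcodes that met 1 rule only, 138, 249, 63 and 51 in the endothelial class, had 2345, 2236, 1303 and 867 CPM. Other classes were mixed too, with lower shares on western diet. The smooth muscle rule was also met by 56.5, 61.5, 41.9 and 34.1% of macrophage and 39.6, 44.6, 35.5 and 27.7% of fibroblast barcodes. In the first 3 libraries it was met by 62.4, 67.1 and 17.9% of B and 60.2, 69.6 and 19.7% of T barcodes. Levels are therefore given for the first rule met and, where it matters, for barcodes meeting 1 rule only; smooth muscle barcodes are the same both ways. Any 2 libraries shared 9 to 41 kept barcodes. Brackets hold 95% intervals that cover counting error only. With 1 library per group there was no test and no spread over mice.

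Most of the 10 genes were highest in a class of the vessel wall. In barcodes meeting 1 rule only, Tgfb2 and Ltbp1 were highest in smooth muscle, Eng in endothelium and Tgfbr3 in fibroblasts in all 4 libraries. That is 4 of 10 genes, beside 17.7% of all genes with a highest class that was the same in every library. By the first rule met it was 3 of 10, Tgfbr3, Ltbp1 and Ltbp4, beside 22.7% of all genes. The highest class of Tgfb1, Tgfbr1 and Tgfbr2 changed between libraries: macrophages, B cells or, with 1 rule only, endothelium for Tgfb1, smooth muscle on normal and macrophages on western diet for Tgfbr1, and fibroblasts on normal diet and macrophages or B cells on western diet for Tgfbr2.

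**Figure D1:**
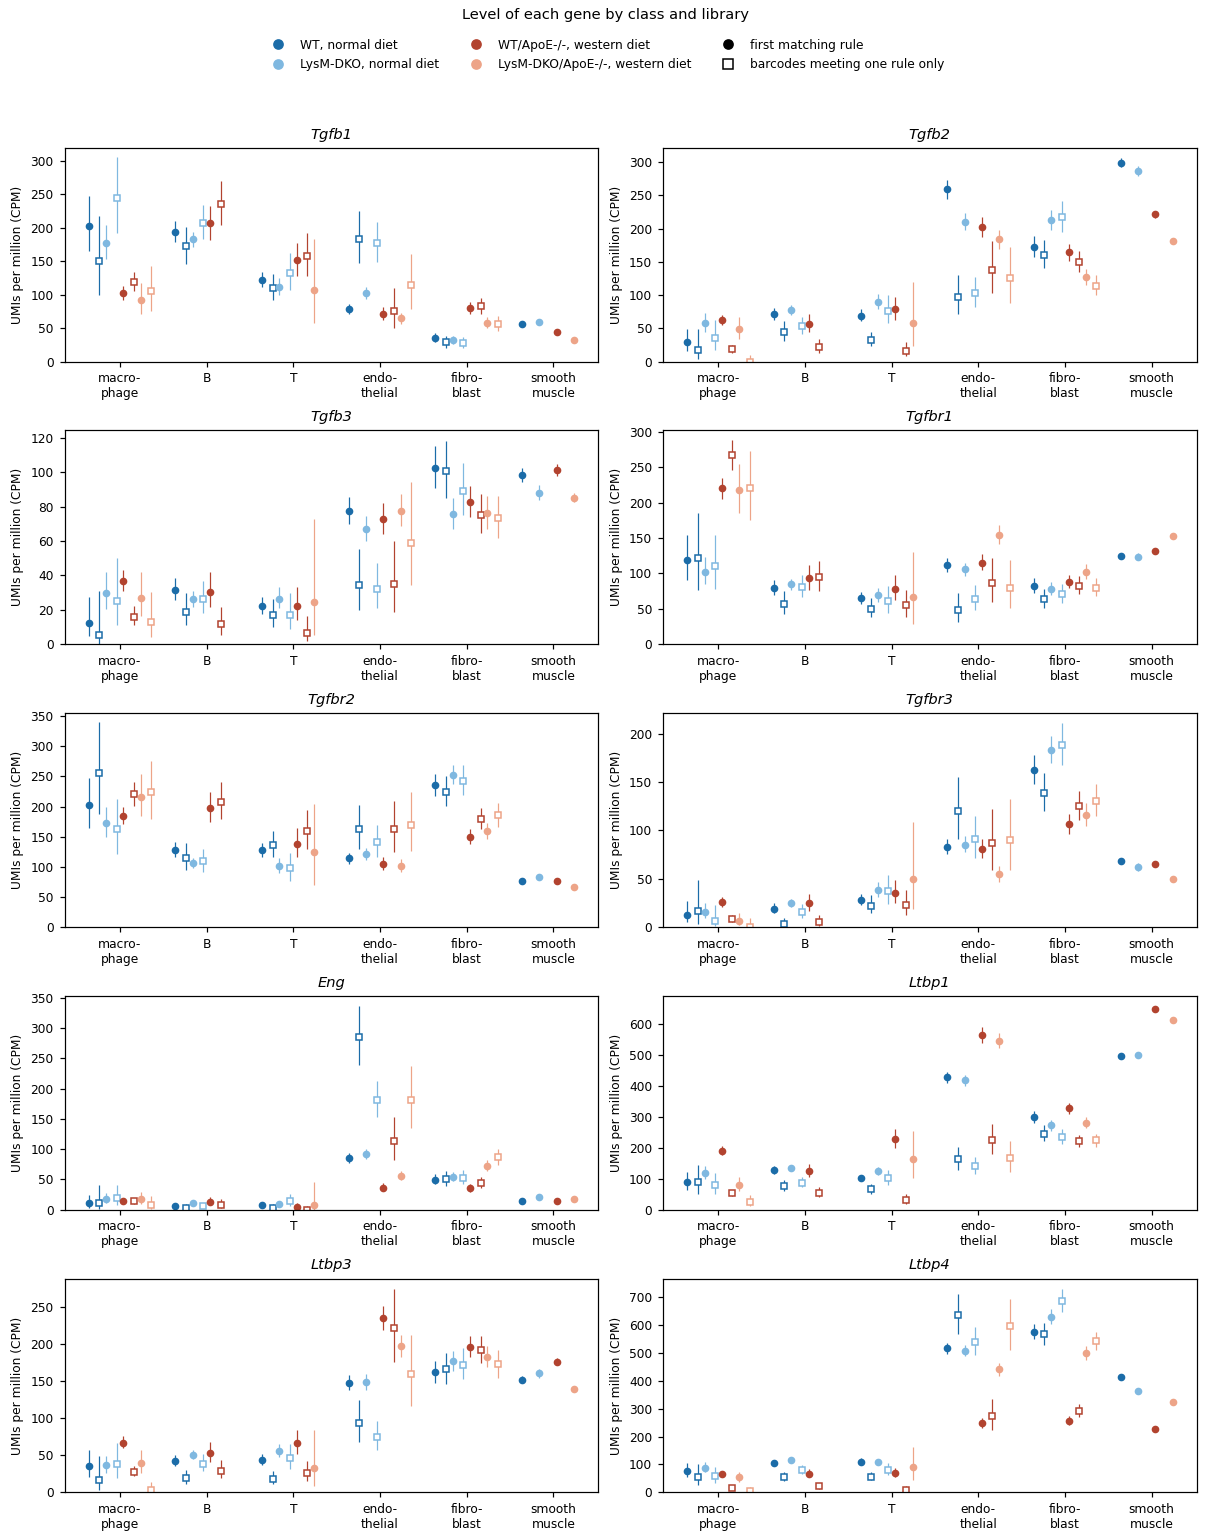
Level of each of the 10 genes (CPM, vertical axis, one scale per gene) by class and library, with 95% counting intervals; filled circles are barcodes of the first matching rule and open squares those meeting 1 rule only. By the first matching rule Tgfb1 stands at 92.6 to 203 CPM in macrophages against 32.4 to 59.3 CPM in smooth muscle. Macrophage barcodes meeting 1 rule only reach 245 CPM. Ltbp4 in smooth muscle, fibroblasts and endothelium is lowest in WT/ApoE-/-.

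A member in a class was counted as past 2-fold when its log2 ratio between 2 libraries was at least 1 in size, over at least 50 barcodes in each library and 20 UMIs in both together. For LysM-DKO over WT on normal diet, 1 of 60 member-class pairs was past 2-fold, beside 6.55% of all gene-class pairs. On western diet, without B and T cells, it was 3 of 40, beside 9.98% of all pairs. For western over normal diet 10 of 60 pairs were past 2-fold in WT, 7 of them higher, beside 17.8% of all pairs, and 2 of 40 in LysM-DKO, beside 15.1%. By the first rule met the share of the members was below that of all genes in each contrast.

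In barcodes meeting 1 rule only the counts were 4 of 48, 5 of 39, 11 of 47 and 5 of 35 pairs, beside 7.31, 11.2, 17.8 and 18.4% of all pairs. Of the 11 pairs for diet in WT 9 were lower there, where 7 of 10 had been higher by the first rule met. These 2 counts cover different classes. Macrophages, with 36 barcodes meeting 1 rule only in WT on normal diet, are not among the 47 pairs. By the first rule met they held 4 of the 7 higher pairs. Of the 16 calls by the first rule met, 8 were of Tgfb2, Tgfb3, Tgfbr3 and Ltbp1 in macrophages, genes of the wall that are set beside Acta2 further on. Over the members the median log2 ratio for diet was 0.90 (all genes 0.29) in WT and -0.19 (all genes 0.10) in LysM-DKO in macrophages, -0.19 (all genes 0.14) and 0.03 (all genes 0.16) in fibroblasts, -0.11 (all genes -0.03) and -0.20 (all genes 0.03) in endothelium, and 0.00 (all genes -0.01) and -0.26 (all genes -0.04) in smooth muscle. For genotype on normal and western diet it was 0.25 (all genes 0.08) and -0.32 (all genes -0.10) in macrophages, 0.11 (all genes 0.01) and -0.01 (all genes 0.05) in fibroblasts, -0.01 (all genes 0.00) and -0.05 (all genes 0.04) in endothelium, and 0.00 (all genes 0.01) and -0.22 (all genes -0.02) in smooth muscle. Each library enters a genotype contrast and a diet contrast, so these share libraries.

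**Figure D2:**
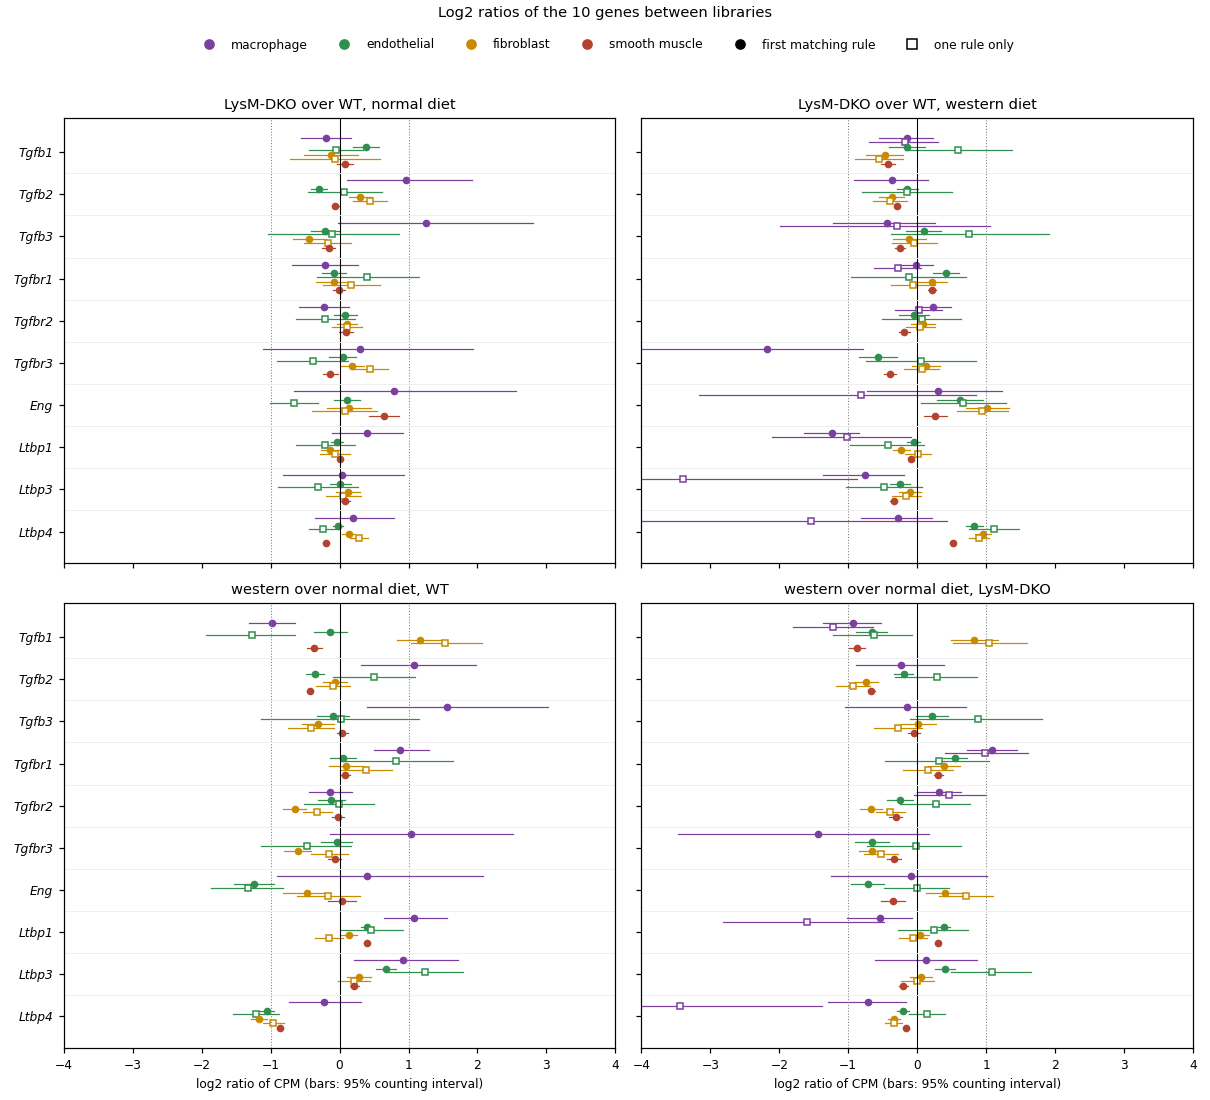
Log2 ratio of CPM between libraries (horizontal axis; dotted lines mark 2-fold) for the 10 genes in macrophages, endothelium, fibroblasts and smooth muscle, with 95% counting intervals, some of which run beyond the axis. Ltbp4 in the 3 wall classes lies at 0.51 to 0.96 for LysM-DKO over WT on western diet and at -1.17 to -0.87 for western over normal diet in WT, and at -0.19 to 0.13 for genotype on normal diet.

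Tgfb1, the ligand known from immune cells and platelets (chromosome 7, 25687002 to 25705077, plus strand), was at 203 [165, 248], 177 [153, 204], 103 [92.7, 113] and 92.6 [71.5, 118] CPM in macrophages. Both western diet libraries were below both normal diet libraries, and the intervals of the diets did not overlap. The log2 ratios of western over normal diet were -0.99 [-1.31, -0.65] in WT and -0.94 [-1.36, -0.52] in LysM-DKO. In barcodes meeting 1 rule only they were -0.33 [-0.91, 0.29], on 36 barcodes of WT, and -1.22 [-1.81, -0.65]. Pf4, Ppbp and Itga2b, listed as platelet markers, summed to 1479, 896, 133 and 577 CPM in macrophages. Both western diet libraries were the lower ones, but LysM-DKO/ApoE-/- lay well above WT/ApoE-/-, unlike for Tgfb1. Which cells these counts came from, and their part in the result, was not tested. B cells had 194 [179, 211], 183 [171, 194] and 207 [183, 233] CPM of Tgfb1 in the first 3 libraries. T cells had 123 [111, 134], 111 [99.3, 124] and 152 [128, 178] CPM. The western diet library was the highest in both, with log2 ratios of diet in WT of 0.09 and 0.31. Over the alternative settings these ran from -0.02 to 0.45 and from 0.05 to 0.51.

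In the vessel wall Tgfb1 went in different directions by class. Fibroblasts had 35.5 [28.9, 43.1], 32.5 [26.9, 38.9], 79.5 [71.0, 88.9] and 57.5 [49.6, 66.2] CPM, with both western diet libraries above both normal diet libraries, by log2 ratios of 1.16 [0.84, 1.5] in WT and 0.82 [0.49, 1.17] in LysM-DKO. Without the barcodes marked by cartilage genes the WT ratio was 0.59. Smooth muscle had 56.2 [53.2, 59.4], 59.3 [55.7, 63.0], 43.6 [41.4, 45.9] and 32.4 [30.8, 34.1] CPM, lower on western diet, at -0.37 [-0.47, -0.26] and -0.87 [-0.99, -0.76] on the log2 scale. Endothelial barcodes meeting 1 rule only had 183 [147, 225], 177 [149, 208], 75.7 [50.3, 109] and 114 [78.8, 161] CPM, with a log2 ratio of diets of -1.28 [-1.94, -0.65] in WT, where the whole endothelial class gave -0.13 [-0.37, 0.10].

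Tgfb2, an isoform known from heart and vessel development (minus strand of chromosome 1, 186622792 to 186705989), stood in smooth muscle at 299 [292, 306], 287 [279, 295], 221 [217, 227] and 181 [177, 185] CPM. The western diet libraries were the lower ones, and their intervals lay apart from each other and from those of normal diet. Log2 ratios of western over normal diet were -0.43 [-0.48, -0.39] in WT and -0.66 [-0.71, -0.61] in LysM-DKO, and those of LysM-DKO over WT -0.06 [-0.11, -0.01] on normal and -0.29 [-0.34, -0.25] on western diet.

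Fibroblasts held Tgfb2 at 172 [157, 188], 212 [198, 228], 164 [152, 177] and 127 [115, 139] CPM. Here LysM-DKO was above WT on normal diet, at 0.30 [0.14, 0.47], and below it on western diet, at -0.37 [-0.55, -0.19] on the log2 scale. In fibroblasts with Pi16 or Dpp4, genes of adventitial progenitor fibroblasts, the levels were 196, 201, 118 and 111 CPM. The level in endothelium was 259, 210.4, 202 and 184 CPM, but 97.7, 103, 138 and 125 CPM in barcodes meeting 1 rule only.

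Tgfb3, the remaining ligand (chromosome 12, 86056745 to 86079041, minus strand), was found in the wall. Smooth muscle had 98.4 [94.4, 103], 88.1 [83.7, 92.7], 101 [98, 105] and 85.2 [82.7, 87.9] CPM. LysM-DKO was the lower genotype on both diets, at -0.16 [-0.25, -0.07] and -0.25 [-0.31, -0.18] on the log2 scale, and the diet ratios were 0.04 [-0.03, 0.12] and -0.05 [-0.13, 0.04]. Fibroblasts held it at 103, 75.6, 82.6 and 76.4 CPM.

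Tgfbr1, the type I receptor kinase (chromosome 4, 47353222 to 47414931, plus strand), differed most in macrophages, at 119 [90.4, 155], 103 [84.6, 123], 220.1 [206, 235] and 218 [185, 255] CPM. Both western diet libraries were above both normal diet libraries, and the intervals of the diets did not overlap. The log2 ratios were 0.88 [0.50, 1.30] in WT and 1.09 [0.73, 1.45] in LysM-DKO, of which the second is past 2-fold. LysM-DKO over WT gave -0.22 [-0.69, 0.27] on normal and -0.01 [-0.27, 0.24] on western diet. In barcodes meeting 1 rule only the levels were 122, 111, 267 and 221 CPM.

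The same order of diets held for the share of macrophages with a Tgfbr1 UMI once each barcode was thinned to 1000 UMIs: 10.9, 9.13, 16.5 and 17.8%, beside 42.4, 38.0, 44.0 and 50.4% before thinning. Smooth muscle, the other class rich in Tgfbr1, had 125 [120.1, 129], 124 [119, 129], 132 [128, 136] and 153 [149.6, 157] CPM, highest in LysM-DKO/ApoE-/-, where LysM-DKO over WT was 0.22 [0.16, 0.27] on the log2 scale. Fibroblasts held 82.9, 78.0, 88.5 and 103 CPM.

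Tgfbr2, the type II receptor that binds ligand first (chromosome 9, 116084293 to 116175360, minus strand), was found in fibroblasts, immune cells and endothelium. Fibroblasts had 235 [218, 254], 253 [237, 269.5], 149 [138, 162] and 159 [145, 173] CPM. Both western diet libraries were below both normal diet libraries, at -0.65 [-0.82, -0.49] in WT and -0.67 [-0.83, -0.52] in LysM-DKO on the log2 scale, or -0.32 [-0.54, -0.11] and -0.39 [-0.60, -0.18] in barcodes meeting 1 rule only. Macrophages had 203 [165, 248], 174 [149.8, 199.9], 185 [171, 199] and 217 [184, 254] CPM, with overlapping intervals, and the diet ratios were -0.14 [-0.45, 0.18] and 0.32 [0.00, 0.63].

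Smooth muscle had less Tgfbr2 than fibroblasts or macrophages in every library, at 77.1, 82.5, 75.5 and 66.4 CPM. B cells held 128 [116, 142], 106 [97.6, 115] and 198 [174, 224] CPM in the first 3 libraries, highest on western diet, at a log2 ratio of 0.63 [0.39, 0.86] in WT. T cells held 128, 101 and 139 CPM. Endothelium held 114, 120.4, 105 and 101 CPM, and 163 [129, 203], 141 [116, 169], 162 [124, 209] and 170.0 [126, 225] CPM in barcodes meeting 1 rule only, where the 4 intervals overlap.

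Tgfbr3, the co-receptor betaglycan (chromosome 5, 107106570 to 107289629, minus strand), was highest in fibroblasts, at 162 [148, 178], 183 [169.5, 198], 106 [96.4, 117] and 116 [105, 128] CPM. Both western diet libraries were the lower ones, at -0.61 [-0.80, -0.41] in WT and -0.66 [-0.84, -0.48] in LysM-DKO on the log2 scale. In barcodes meeting 1 rule only these ratios were -0.15 [-0.42, 0.12] and -0.53 [-0.77, -0.28], so that of WT lay within counting error of 0. Smooth muscle had 68.0, 62.0, 64.6 and 49.1 CPM, lowest in LysM-DKO/ApoE-/-, where LysM-DKO over WT was -0.40 [-0.48, -0.31].

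Eng, the co-receptor endoglin of endothelium (chromosome 2, 32646595 to 32682669, plus strand), was at 285 [239.8, 336], 180.4 [152, 212], 114 [81.8, 153] and 180.4 [135, 237] CPM in endothelial barcodes meeting 1 rule only. WT/ApoE-/- was the lowest library there and in the whole class, at 85.7, 92.1, 36.3 and 56.0 CPM. LysM-DKO over WT on normal diet was -0.66 [-1.0, -0.31] in the first and 0.10 [-0.09, 0.30] in the second on the log2 scale. Western over normal diet in WT was -1.33 [-1.86, -0.82] there and -1.24 [-1.54, -0.95] in the whole class on the log2 scale, and past 2-fold under all 10 alternative settings. In LysM-DKO it was 0.00 [-0.49, 0.47] and -0.72 [-0.96, -0.48]. The endothelial markers Vwf, Cldn5, Egfl7, Tie1 and Emcn summed to 1598, 1662, 641 and 1322 CPM in these barcodes, lowest in the same library, and their part in the result was not tested.

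Fibroblasts held Eng at 49.6 [41.7, 58.4], 54.6 [47.3, 62.7], 35.6 [29.9, 42.0] and 71.9 [63.1, 81.6] CPM. LysM-DKO was above WT on western diet, at 1.02 [0.71, 1.33], while normal diet gave 0.14 [-0.18, 0.46] on the log2 scale. With equal weight for each barcode the western diet ratio was 0.58. In smooth muscle Eng was at 13.8, 21.6, 14.1 and 16.9 CPM, with LysM-DKO above WT on both diets, at 0.65 [0.43, 0.87] and 0.26 [0.10, 0.43].

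Ltbp1, which anchors latent TGF-beta to the matrix (chromosome 17, 75005568 to 75392512, plus strand), was at 496 [487, 505], 500.5 [489.9, 511], 651 [643, 659.8] and 615 [608, 622] CPM in smooth muscle, its highest class. The normal diet libraries were alike, at 0.01 [-0.03, 0.05] on the log2 scale, and both western diet libraries were above them, at 0.39 [0.36, 0.42] in WT and 0.30 [0.26, 0.33] in LysM-DKO. Thinned to 1000 UMIs, 33.0, 32.4, 43.7 and 43.1% of smooth muscle barcodes held an Ltbp1 UMI, beside 73.5, 63.4, 70.9 and 93.3% before thinning. In B cells, which should lack the gene, it was 9.96, 12.0 and 9.74% in the first 3 libraries, thinned alike.

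Fibroblasts did not follow this order: Ltbp1 was at 300.1, 273, 328 and 280.5 CPM, and at 246 [221, 273], 234 [211, 259.6], 222 [202, 242] and 224 [204, 246] CPM in barcodes meeting 1 rule only, with overlapping intervals. In macrophages Ltbp1 was at 90.1, 118, 191 and 81.2 CPM, past 2-fold for genotype on western diet, at -1.23 [-1.65, -0.84], and for diet in WT, at 1.08 [0.64, 1.56]. Macrophage barcodes meeting 1 rule only had 89.0, 79.4, 53.1 and 26.3 CPM, with the WT diet ratio, on 36 barcodes of WT, at -0.75 [-1.50, 0.11], on the other side of 0.

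Ltbp3, which also binds latent TGF-beta (chromosome 19, 5740904 to 5758532, plus strand), was at 152 [147, 157], 161 [155, 167], 177 [172, 181] and 139.9 [137, 143] CPM in smooth muscle and 162 [148, 178], 177 [163, 191], 197 [183, 211] and 183 [169, 198] CPM in fibroblasts. WT/ApoE-/- was the highest library in both. In smooth muscle LysM-DKO over WT was 0.08 [0.01, 0.15] on normal diet and -0.34 [-0.39, -0.29] on western diet. Endothelial barcodes meeting 1 rule only had 93.7 [68.6, 125], 75.4 [57.7, 96.8], 222 [176, 275] and 159.6 [117, 213] CPM, higher on western diet in both genotypes, at 1.24 [0.70, 1.80] and 1.08 [0.50, 1.66] on the log2 scale. These rest on 63 and 51 barcodes on western diet, and the whole class gave 0.67 and 0.40. The part of other wall cells in these ratios was not tested.

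Ltbp4, a latency protein that also takes part in elastic fibre assembly (chromosome 7, 27305136 to 27337692, minus strand), was lowest in WT/ApoE-/- in every wall class. Fibroblasts had 577 [549, 605], 631 [605, 657], 257 [241, 273] and 499.6 [476, 524] CPM, and smooth muscle had 416 [407, 424], 363 [354, 372], 228 [223, 233] and 326 [321, 331] CPM. Endothelial barcodes meeting 1 rule only had 637 [569, 712], 541 [492, 595], 276 [225, 335] and 597 [511, 693] CPM. In each of the 3 classes the interval of WT/ApoE-/- lay below those of the other 3 libraries.

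In WT, western over normal diet gave an Ltbp4 log2 ratio of -1.17 [-1.28, -1.05] in fibroblasts, -1.06 [-1.17, -0.95] in the whole endothelial class and -0.87 [-0.91, -0.82] in smooth muscle. In LysM-DKO the same ratios were -0.34 [-0.43, -0.24], -0.21 [-0.30, -0.11] and -0.16 [-0.20, -0.11]. With equal weight for each barcode the smooth muscle ratio turned to 0.04. LysM-DKO over WT on western diet was 0.96 [0.84, 1.07] in fibroblasts, 0.83 [0.71, 0.95] in the endothelial class and 0.51 [0.48, 0.55] in smooth muscle, and on normal diet 0.13 [0.04, 0.22], -0.02 [-0.10, 0.06] and -0.19 [-0.24, -0.15]. Endothelial barcodes meeting 1 rule only gave -1.21 [-1.55, -0.88] for diet in WT and 0.14 [-0.12, 0.40] in LysM-DKO, where the direction turned, and 1.11 [0.75, 1.48] and -0.24 [-0.45, -0.02] for genotype on western and normal diet. With equal weight for each barcode the fibroblast ratios were -0.59 for diet in WT and 0.64 for genotype on western diet. Without cartilage-marked barcodes they were -0.86 and 0.77. Whether the diet ratios of the genotypes differ was not tested.

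The share of barcodes with an Ltbp4 UMI, thinned to 1000 UMIs, was lowest in the same library, at 30.2, 26.4, 18.6 and 27.8% in smooth muscle and 43.2, 44.6, 30.1 and 40.2% in fibroblasts. Before thinning the shares were 71.4, 58.8, 44.4 and 82.6%, and 80.6, 85.0, 65.9 and 79.2%. Thinned B cells of the first 3 libraries gave 8.15, 10.3 and 4.77%. Lum, Vcam1, Spp1, Tnfrsf11b and Fn1, markers of modulated wall cells, summed to 2796, 3216, 25873 and 9275 CPM in fibroblasts and 1205, 1485, 7834 and 2788 CPM in smooth muscle, highest where Ltbp4 was lowest. Acan, Col2a1, Comp, Sox9 and Chad, markers of cartilage, summed to 201, 326, 4375 and 1363 CPM in fibroblasts and 64.8, 78.5, 569.7 and 253 CPM in smooth muscle. Hemoglobin genes in smooth muscle summed to 10154, 17361, 376 and 52.9 CPM. The part of any of these in the Ltbp4 levels was not tested.

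Marker-defined subsets show where in the wall Ltbp4 differed. Fibroblasts with a UMI of Pi16 or Dpp4 had 595 [556, 636], 679 [643, 717], 437 [396, 481] and 573 [532, 616] CPM, and fibroblasts with neither had 558 [519, 598], 578 [543, 615], 199 [183, 215] and 453 [424, 483] CPM. WT/ApoE-/- was lowest in both, by more in the second. The log2 ratio of diets in WT was -0.44 [-0.62, -0.27] in the first and -1.49 [-1.65, -1.33] in the second, and LysM-DKO over WT on western diet was 0.39 [0.21, 0.57] and 1.19 [1.04, 1.34]. Modulated wall markers summed to 2460, 3289, 5384 and 4603 CPM in the first and 3152, 3136, 32524 and 12225 CPM in the second.

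Among barcodes that met no class rule, those with both Lum and Vcam1 numbered 62, 72, 779 and 47 and had Ltbp4 at 759.8 [640.0, 896], 667 [565, 783], 123 [109, 139.6] and 447 [355, 555] CPM. Cartilage-marked ones on western diet, 404 and 31 barcodes, had 88.7 [75.7, 103] and 167 [127, 214] CPM. Both groups of barcodes had less Ltbp4 in WT/ApoE-/- than any wall class of that library. Tgfb1 in the cartilage-marked barcodes was at 144 [127, 162] and 147 [110.2, 192] CPM, above its levels in fibroblasts and smooth muscle. In smooth muscle with at least 3 Rgs5 UMIs, a mural cell marker, Ltbp4 was at 411, 381, 229 and 303 CPM and in the rest at 418, 351, 228 and 365 CPM, with the same lowest library. Ltbp1 was higher in the first than in the second in every library, at 571, 598, 726 and 648 CPM beside 453, 437, 584 and 559 CPM.

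**Figure D3:**
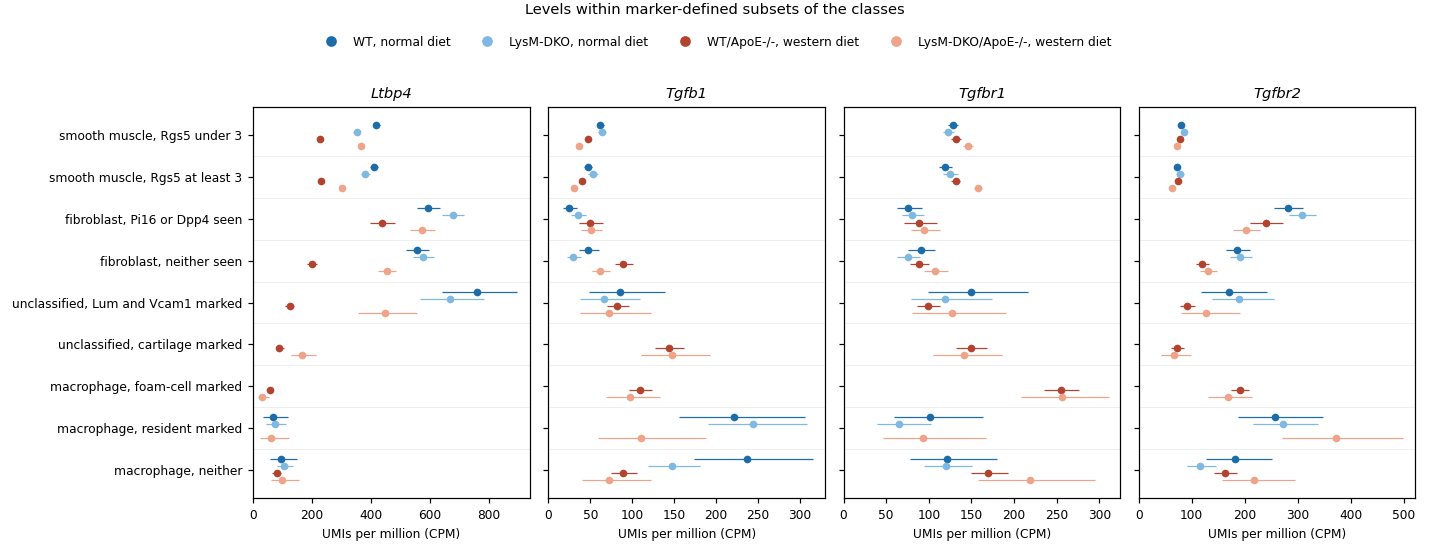
Levels (CPM, horizontal axis) of Ltbp4, Tgfb1, Tgfbr1 and Tgfbr2 in marker-defined subsets of at least 30 barcodes, with 95% counting intervals, 1 colour per library. Ltbp4 in WT/ApoE-/- runs from 437 CPM in fibroblasts with Pi16 or Dpp4 to 88.7 CPM in cartilage-marked barcodes, and Tgfbr1 is at 255 and 256 CPM in foam-cell marked macrophages on western diet.

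Other genes also split by fibroblast subset. Eng was at 47.9, 57.4, 59.5 and 66.9 CPM with Pi16 or Dpp4 and at 51.3, 51.5, 27.8 and 75.1 CPM with neither, and LysM-DKO over WT on western diet was 0.17 [-0.33, 0.68] and 1.43 [1.04, 1.84] on the log2 scale. Tgfb1 was higher on western diet in both, at 24.6, 35.0, 49.1 and 50.5 CPM and at 47.0, 29.7, 89.4 and 61.9 CPM. Tgfbr2 was lower in the subset with neither gene in every library, at 186, 192, 119.9 and 131 CPM beside 282, 308, 240.1 and 202 CPM. The same held for Tgfbr3, at 139.6, 166, 86.4 and 87.9 CPM beside 183, 198, 168 and 160.2 CPM.

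Macrophages were split into foam-cell marked (Trem2, Gpnmb), resident marked (Lyve1, Folr2) and the rest. Tgfbr1 was at 255 [235, 276] and 256 [208, 311] CPM in foam-cell marked barcodes on western diet, beside 169.9 [149, 193] and 218 [157, 295] CPM in macrophages with neither mark. Resident marked macrophages, 34, 64 and 39 in the libraries with at least 30, had 102 [59.4, 163], 65.4 [39.4, 102] and 93.1 [46.5, 167] CPM, with overlapping intervals. Tgfbr2 had the other order: these resident marked macrophages had 258 [187, 347], 272 [215, 339] and 372 [270.5, 499.7] CPM, and foam-cell marked ones on western diet 190.3 [173, 209] and 169 [130.5, 215] CPM.

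Capillary-marked endothelial barcodes (Rgcc, Gpihbp1, Cd36), 220, 276, 54 and 39 in number, had more Eng than the others in every library, at 165, 184, 71.0 and 76.2 CPM beside 59.4, 59.9, 29.0 and 53.6 CPM. The log2 ratio of diets in WT was -1.21 [-1.73, -0.73] in capillary-marked barcodes and -1.03 [-1.42, -0.66] in the others. With 39 capillary-marked barcodes in LysM-DKO/ApoE-/-, no ratio is given there.

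The calls not yet given were all in immune classes. In macrophages Tgfb2 was at 29.3, 57.2, 62.1 and 48.4 CPM, with a log2 ratio of 1.08 [0.31, 1.98] for diet in WT. Tgfb3 was at 12.6, 30.0, 36.8 and 27.1 CPM there, from 6, 33, 144 and 19 UMIs, with 1.25 [-0.02, 2.80] for genotype on normal diet and 1.55 [0.39, 3.02] for diet in WT. Tgfbr3 was at 12.6, 15.4, 25.8 and 5.70 CPM, from 6, 17, 101 and 4 UMIs, with -2.18 [-4.08, -0.78] for genotype on western diet, 1.04 [-0.13, 2.52] for diet in WT and -1.44 [-3.47, 0.18] in LysM-DKO. These are low counts, and 3 of the 5 intervals of Tgfb3 and Tgfbr3 reach 0. Ltbp1 in T cells was at 102, 124 and 228 CPM, with 1.16 [0.91, 1.40] for diet in WT, but -1.03 [-1.82, -0.30] in barcodes meeting 1 rule only. Eng in B cells was at 6.0, 11.7 and 13.3 CPM, from 18, 64 and 17 UMIs, with 1.15 [0.10, 2.19].

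These wall genes in immune classes were set beside Acta2. For this estimate, chosen after the values were seen, the share of smooth muscle Acta2 found in a class was applied to the smooth muscle level of each gene. In macrophage barcodes meeting 1 rule only it came to 53.7 to 175% of the Tgfb2 measured, in the 3 libraries with a count, to 54.3 to 68.4% of Ltbp1 and to 66.4 to 180.3% of Ltbp4. Tgfb3 gave 173, 37.6, 27.9 and 18.9% in the 4 libraries, Ltbp3 28.1 to 155%, and Tgfbr3 36.6 to 106% in the 3 with a count. For Tgfb1 it came to 0.896 to 3.65%, for Tgfbr2 to 0.864 to 5.53% and for Tgfbr1 to 2.02 to 12.1%. Eng in endothelial barcodes gave 0.423 to 1.77% and Ltbp4 in fibroblasts 2.24 to 7.58%. By the first rule met, Acta2 in macrophages was at 2492, 2474, 4197 and 2362 CPM, highest in WT/ApoE-/-. In that library Ltbp1, Tgfb2, Tgfb3 and Tgfbr3 were past 2-fold above WT on normal diet. The estimate there came to 82.1, 85.9, 66.3 and 60.3% of these genes in that order, and each measured interval lay above it. In WT on normal diet it came to 78.7, 146, 112 and 77.3%, and no interval lay above it. For Ltbp1 in T cells, also by the first rule met, it came to 87.0, 91.8 and 65.3% in the first 3 libraries. Both WT intervals lay above it and that of LysM-DKO did not. For Eng in B cells it came to 55.2, 41.6 and 19.8%, with each interval above it. The estimate uses Acta2 alone, has no interval of its own and leaves out RNA of fibroblasts or other wall cells. A measured interval above it therefore does not place the rest in the immune cells. The part of smooth muscle RNA in these ratios was not tested.

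Of 35 other genes of the pathway, 30 to 34 met the minimum counts in a class. For LysM-DKO over WT on normal diet 9 of 199 gene-class pairs were past 2-fold higher and 1 lower, beside 5.04 and 1.51% of all pairs. On western diet 3 of 134 were higher and 11 lower, beside 2.97 and 7.01%. For western over normal diet 28 of 200 were higher and 3 lower in WT, beside 9.73 and 8.06%, and 12 of 133 higher and 8 lower in LysM-DKO, beside 4.58 and 10.5%. Smad2, Smad4, Smad1, Smad5 and the receptors of related ligands (Acvrl1, Acvr1 and Bmpr2) were past 2-fold in no class and contrast counted.

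By the first rule met, matrix partners, activators and responsive genes were past 2-fold in both diet contrasts, always higher on western diet. Ltbp2, an LTBP that binds fibrillin but no latent TGF-beta, was at 65.7, 109, 469.6 and 410.5 CPM in fibroblasts, with log2 ratios of 2.84 in WT and 1.91 in LysM-DKO. Endothelium gave 2.74 and 1.72 for it, and macrophages 5.34, from 1 UMI in WT on normal diet, and 2.65. Thbs1, thrombospondin 1, an activator of latent TGF-beta, was at 203, 283, 761 and 848 CPM in fibroblasts, with 1.90 and 1.58. It was past 2-fold higher in endothelium and macrophages too, while in smooth muscle, at 85.9, 129.5, 278 and 43.2 CPM, it was higher on western diet in WT and lower in LysM-DKO.

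Id1, a responsive gene, was at 95.2, 102, 213 and 206 CPM in fibroblasts. Endothelium held the integrin subunit gene Itgb8 at 19.5, 14.7, 68.2 and 39.1 CPM. Macrophages held the integrin subunit gene Itgb5 at 121, 86.3, 313 and 342 CPM. In each of the 3 the western diet libraries were the highest. For diet in LysM-DKO, macrophages had 4 of 32 pathway genes past 2-fold higher and 0 lower by the first rule met. Macrophage barcodes meeting 1 rule only had 1 of 23 higher and 4 lower, beside 13.9 and 9.61% of all genes. At most 1 of the macrophage calls of Ltbp2, Thbs1 and Itgb5 thus stayed in those barcodes. Endothelium had 11 of 33 and fibroblasts 4 of 33 higher with 1 rule only, beside 9.32 and 8.79%.

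By the first rule met, 2 genes were past 2-fold in both genotype contrasts, both in macrophages. Thbs1 was higher in LysM-DKO, at 41.9, 173, 135 and 348 CPM, with log2 ratios of 2.04 [1.38, 2.79] on normal and 1.36 [1.14, 1.58] on western diet. Dcn, decorin, a proteoglycan of fibroblasts that binds TGF-beta, was lower, at 381, 177, 958 and 231 CPM, with -1.11 [-1.40, -0.81] and -2.05 [-2.29, -1.83]. Fibroblasts held it at 12594, 9563, 8994 and 9478 CPM. Fibroblast markers, Dcn among them, summed to 949, 996, 3282 and 886 CPM in macrophages, and their part in the level of Dcn was not tested. In macrophage barcodes meeting 1 rule only, 0 of 32 pathway genes were past 2-fold higher for genotype on western diet, and 5 were lower. All genes gave 4.31 and 10.4%. Thbs1 was thus not past 2-fold higher in those barcodes. On normal diet WT had 36 such barcodes, under the minimum. In smooth muscle on western diet 7 of 34 pathway genes were past 2-fold lower in LysM-DKO, beside 9.61% of all genes: Tgif1, Ltbp2, Nrros, Dcn, Itgb8, Thbs1 and Tgfbi. Fibroblast markers summed to 2301, 2585, 5531 and 2388 CPM in smooth muscle, and they and the modulated wall markers given above were lower in LysM-DKO/ApoE-/- than in WT/ApoE-/-; their part in this count was not tested.

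Likeness of pattern was measured by Pearson's r of log2(CPM + 10) over 22 points, each a class in a library, among 3333 genes of at least 50 CPM on average. The points share libraries, depth and carried-over RNA, so r is a description. Ltbp3 was closest to Bgn (0.992), Calu and Fstl1, Ltbp1 to Olfr1033 (0.980), Dpysl3 and Pde5a, and Ltbp4 to Meis2 (0.966), Sema3d and Ndst1. Tgfb2 was closest to Fxyd1 (0.966), Hspg2 and Fermt2, and Tgfb3 to Ptprd (0.979), Fxyd1 and Cped1.

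Among receptors and co-receptors, Tgfbr3 was closest to Adamts5 (0.960), Ddr2 and Htra3, and Eng to Ramp2 (0.931), Cytl1 and Thbd. Tgfbr1 was closest to Vdac2 (0.922), Gpx1 and Ckb, and Tgfbr2 to Epb41l2 (0.892), Antxr2 and Ifi203. Tgfb1 stood apart from the wall genes: its closest genes were Rnf115 (0.922), Hnrnpf and Ptbp3, and its r with Tgfb2, Tgfb3, Ltbp1, Ltbp3 and Ltbp4 lay between -0.857 and -0.739. Among those 5 genes r lay between 0.772 and 0.929.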

How the data were processed

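Aortas were digested into single cells and run with 10x Genomics 3' v3.1 chemistry, per the labels' protocols. The deposited matrices hold UMI counts per gene and barcode. Cell Ranger made them, in version 6.0.1 for normal diet and 6.1.2 for western diet, per the file headers. The submitters' processing notes name Cell Ranger 6.1.2, Seurat 4.1.0 and mm10. Annotation release and strand setting are not given in the sources used here. Library totals were 51281643, 50662515, 67450979 and 62510744 UMIs in 13831, 15826, 29724 and 11414 barcodes.

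UMIs were summed per library and class (at least 5 marker UMIs for macrophages, 2 for B, T and endothelial, 3 for fibroblast and smooth muscle classes) and scaled to 1000000. No doublet caller was run; leaving out barcodes that met more than 1 rule stands in for it. Levels have exact Poisson and ratios exact binomial 95% intervals. The computation was tested on simulated data. With 1 library per group no test was made; the closing section gives the 10 alternatives tried.

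The text names every member, the 3 genes most like each, and, of 35 listed pathway genes, those past 2-fold one way in both genotype or both diet contrasts of a class, at most 4 a class; 1 gene this rule names is not reported here. The pathway genes named as past 2-fold in no contrast, and those lower in smooth muscle, were chosen after their values were seen. Members and lists were chosen with earlier results of these data known. Positions are from GENCODE M21 on GRCm38, which held 99.6% of the gene IDs. Without strand, counts of Tgfb3 (overlapping Ttll5) and Eng (Fpgs) could hold reads of those genes on the other strand. The software was Python 3.11.15 with scipy 1.17.1, numpy 2.4.6, pandas 2.3.3 and, for plots, matplotlib 3.10.9.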

Additional observations from a re-analysis of the deposited data

Results flagged for a closer look

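For 3 genes LysM-DKO was above WT on one diet and below it on the other, with counting intervals apart from 0 on both. With 1 library per group the difference between diets was not tested. Ltbp4 in smooth muscle was -0.19 [-0.24, -0.15] on normal and 0.51 [0.48, 0.55] on western diet (log2 of LysM-DKO over WT). Ltbp3 in smooth muscle was 0.081 and -0.34 [-0.39, -0.29]. Tgfb2 in fibroblasts was 0.30 [0.14, 0.47] and -0.37 [-0.55, -0.19], and 0.44 [0.19, 0.69] and -0.39 [-0.64, -0.14] in barcodes meeting 1 rule only.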

How the results depend on the processing

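Counts of member-class pairs past 2-fold were small and moved with the setting. For genotype on normal diet the count of 1 became 4 in barcodes meeting 1 rule only, 3 with doubled class thresholds, 0 with at least 50 UMIs, and 2 with at most 5% mitochondrial UMIs, equal weight for each barcode, median-ratio scaling or cartilage-marked barcodes left out. For genotype on western diet the count of 3 became 5 with 1 rule only and 6 with equal weight. For diet in LysM-DKO the count of 2 became 5 with 1 rule only, 6 with equal weight and 1 with at least 50 UMIs. For diet in WT the count of 10 became 6 with doubled thresholds and 5 without cartilage-marked barcodes. Ltbp1 in T cells, 1.16 for diet in WT, reversed to -1.03 with 1 rule only. It was the one ratio past 2-fold that changed sign where the minimums were met. Macrophages of WT on normal diet, with 36 barcodes meeting 1 rule only, were under the minimum of 50 barcodes. There Ltbp1 for diet in WT, past 2-fold by the first rule met, also lay on the other side of 0. So did Tgfbr3, at 16.7 CPM on normal diet, from 3 UMIs, and 7.83 CPM on western diet. The count of members highest in 1 class in all libraries was 2 to 4 around 3. Of 1952 single ratios under the 10 alternatives, 1711 lay inside the counting interval of the reported value and the others outside it, and 109 of 145 values of ratios reported past 2-fold stayed so. Of the 200 ratios, 80 had the other sign under at least 1 alternative, 16 of them among the 106 whose interval lay apart from 0. The cause was not tested. Median-ratio scaling shifted all genes, in classes by the first rule met, by 0.11 and 0.17 (log2) in fibroblasts and by 0.10 and 0.26 in B and T cells for diet, by 0.11 in T cells for genotype, and by at most 0.003 in smooth muscle. No paired analysis was possible because each group is 1 library, and no library could be left out. Macrophage values on normal diet rest on few barcodes.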
